A study of Mus musculus with 6 samples.

Results

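Cholesterol synthesis and efflux genes, 8 of the 19848 genes in the RNA table, were followed across the immune cells of the mouse brain. The members are a list of gene names, and all 8 were in the table. Hmgcs1, Idi1 and Sqle are enzymes of cholesterol synthesis. Srebf2 encodes the transcription factor that switches this pathway on, and Insig1 the anchor protein that holds the factor back. Abca1 and Abcg1 are pumps that move cholesterol out of the cell, and Ch25h makes the oxysterol 25-hydroxycholesterol.

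In a cell that is short of cholesterol the Srebf2 product is released from the endoplasmic reticulum, is cut in the Golgi, and turns on synthesis enzymes and Insig1. In a cell that is loaded, oxysterols bind the liver X receptors, which turn on Abca1, Abcg1 and Apoe, so that cholesterol leaves on lipoprotein particles. In the brain, microglia clear myelin and dying cells and are known for strong liver X receptor target expression, while Ch25h is known as a gene induced in macrophages by inflammatory signals.

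Single-cell RNA and antibody tags were read together (CITE-seq) from whole brains of female C57BL/6 mice, digested with papain and enriched for mononuclear cells on a Percoll gradient. The 4 groups were young mice (12 weeks) and aged mice (72 weeks), each given either vehicle with an intact gut microbiota (control) or antibiotics that depleted it (ABX; the agents are not given in the sources used here). The 24 mice, 6 per group, were collapsed into 12 hashtagged pools, 3 per group, so a pool is the replicate and the spread between single mice cannot be seen. Young and aged pools ran in separate wells, so age and well cannot be told apart, and hashtags 1 to 3 marked control pools and 4 to 6 ABX pools in both wells, so arm and hashtag cannot be told apart.

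The table held 13052 cells in 10 types named by the authors, 760 to 1590 cells per pool and 5745242 to 13742781 raw UMIs (unique molecular identifiers, one per captured RNA molecule) per pool. Of the cells, 9403 were microglia, 506 border-associated macrophages (BAM, the macrophages of meninges and vessels) and 634 Ly6CLow cells, and 59 cell barcodes occurred in both wells. The summed level of 7 microglia markers had a median over pools of 108 per cell in microglia and 29.1 in BAM, and that of 7 BAM markers was 26.0 in BAM and 0.0688 in microglia. In Ly6CLow cells 7 monocyte markers summed to 9.16, against 82.8 in Ly6CHigh cells, and 6 dendritic cell markers to 5.17, the highest sum of that list among the 9 types with a pool of at least 20 cells. Neutrophil markers summed to 70.5 in B cells and 172 in Ly6CHigh cells, against 2236 in Ly6C+Ly6G+ cells. The values below are corrected UMIs per cell (the authors' RNA values after depth correction), taken as the mean of all cells of 1 type in 1 pool. Tests used limma on log2(mean + 0.05) of genes averaging 0.05 or more in the pools fitted, with Benjamini-Hochberg adjusted p-values over all genes tested and a threshold of 0.05.

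A stretch before the transcription start listed in the RefSeq promoter table on GRCm38.p6 is shown for 4 members. In these 4 a motif known for sterol or cAMP control was matched, and the table held 6 of the 8 members. The 4 lie at chr13:119690201-119690350 (Hmgcs1, plus strand), chr15:82147099-82147268 (Srebf2, plus strand), chr4:53159941-53159970 (Abca1, minus strand, 30 bases only) and chr19:34475149-34475298 (Ch25h, minus strand). The Abca1 bases run from -75 to -46 of the start used. They lie inside the annotated gene, whose outermost start on the minus strand is at 53159988. Capitals mark a match to TCACNCCA, a sterol regulatory element of the kind bound by the Srebf2 product, in Hmgcs1 and Srebf2, to a liver X receptor repeat in Abca1, and to TGACGTCA, the cAMP response element, in Ch25h.
Hmgcs1: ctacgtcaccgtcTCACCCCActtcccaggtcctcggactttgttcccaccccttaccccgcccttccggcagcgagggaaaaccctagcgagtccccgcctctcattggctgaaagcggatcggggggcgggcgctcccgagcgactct
Srebf2: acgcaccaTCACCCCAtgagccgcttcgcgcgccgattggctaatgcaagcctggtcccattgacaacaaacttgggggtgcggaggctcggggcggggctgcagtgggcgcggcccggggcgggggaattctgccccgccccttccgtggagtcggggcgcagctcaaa
Abca1: acagcgttTGACCGGTAGTAACCccggcgc
Ch25h: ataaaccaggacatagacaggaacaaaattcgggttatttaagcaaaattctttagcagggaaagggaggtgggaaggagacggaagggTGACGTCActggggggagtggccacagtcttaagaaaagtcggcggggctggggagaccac

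The windows searched ran from 250 bases before to 50 after the start, on both strands. The TCACNCCA element began at position -137 from the start in Hmgcs1 and at -162 in Srebf2, and 4.36% of all 32851 promoters in the table held it. The liver X receptor repeat of Abca1 began at -67 and was matched in 0.213% of promoters, with a widened pattern chosen after its match was seen. The TGACGTCA of Ch25h began at -61 and was matched in 1.79% of promoters. The CCAAT box, held by 37.4% of promoters, was matched in Hmgcs1, Srebf2, Insig1 and Idi1 and not in Abca1 or Ch25h, and CACGTG, held by 7.15%, in Insig1 and Abca1. A match is a string of letters and was not tested for binding.

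The first comparison asked in which cell types the genes were expressed. The mean of both pumps was highest in microglia, and those of Srebf2, Idi1 and Sqle were lowest there. Abca1 averaged 1.27 ± 0.0842 in microglia (mean ± SD of 12 pools, range 1.17 to 1.40) and 1.19 ± 0.277 in BAM (11 pools, 0.821 to 1.88), and its values in these 2 types overlapped. B cells followed at 0.367 ± 0.174 (11 pools), then Ly6CLow at 0.197 ± 0.0998 (12 pools), and the other 5 types lay between 0.0783 in CD4+ cells and 0.156 in Ly6CHigh cells. No pool of any other type reached the lowest BAM pool, and how many genes separate in this way was not counted. Abca1 was above 0 in 58.2% to 64.2% of the microglia of each pool.

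Abcg1 averaged 0.597 ± 0.0554 in microglia (12 pools, 0.489 to 0.666) and 0.331 ± 0.0821 in Ly6CLow cells (12 pools, 0.188 to 0.463), with no overlap. The share of all genes without overlap between these types was not counted, and 53.7% of the genes tested differed between them at the threshold. B cells (0.306), BAM (0.287), CD8+ cells (0.266), Ly6C+Ly6G+ cells (0.228), ILCs (0.208), Ly6CHigh cells (0.196) and CD4+ cells (0.158) followed. BAM thus lay beside microglia for Abca1 and below them for Abcg1. Within the microglia of each pool Abca1 and Abcg1 had a Spearman rho across cells of 0.143 to 0.284 over the 12 pools, as a description of cells that share a library. For the other 27 pairs of members the median rho over pools lay between -0.0404 and 0.0795. Abca1 was above 0 in 61.7% and Abcg1 in 38.8% of all microglia, and the other members in 0.393% to 13.9%. Ties at 0 thus limit the rho of the other pairs, so the pairs are not compared. The part of detection and of depth per cell in these values was not tested.

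The transcription factor Srebf2 averaged 0.125 ± 0.0180 in microglia (12 pools, 0.0995 to 0.163), the lowest of 9 types, and 0.493 ± 0.140 in Ly6CLow cells (12 pools, 0.280 to 0.694), the highest. The lowest Ly6CLow pool lay above the highest microglia pool, again without a count of how many genes do so. B cells held 0.394 ± 0.113, Ly6C+Ly6G+ cells 0.309, ILCs 0.289, CD4+ cells 0.287, Ly6CHigh cells 0.222, CD8+ cells 0.220 and BAM 0.214. Insig1 ran from 0.106 in CD8+ cells to 0.272 ± 0.104 in Ly6CLow cells, with microglia at 0.126 ± 0.0254.

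Of the enzymes, Idi1 averaged 0.0247 ± 0.00746 in microglia, the lowest of the 9 types, and 0.141 ± 0.0715 in Ly6CLow cells, the highest. Sqle averaged 0.00804 ± 0.00356 in microglia, again the lowest, 0.0789 ± 0.0621 in Ly6CLow cells and 0.111 ± 0.0954 in CD4+ cells (4 pools). Hmgcs1, which makes the precursor of mevalonate, ran from 0.112 in Ly6CHigh cells to 0.259 in Ly6C+Ly6G+ cells, with microglia at 0.162 ± 0.0198. Ch25h was highest in BAM, at 0.166 ± 0.16 in BAM, 0.0497 ± 0.0457 in Ly6CLow cells and 0.00953 ± 0.0130 in microglia. It was above 0 in 35 of 506 BAM (6.92%, median raw depth 7610.5 UMIs) and in 2 of 728 CD8+ cells (0.275%, 7096.5 UMIs). Whether its UMIs in CD8+ cells are background was not tested. Ch25h was at 0 in all 389 Ly6CHigh cells, 214 CD4+ cells and 330 ILCs. By counting error alone this allows up to 0.771%, 1.40% and 0.909% of cells with a UMI of it, a limit on detection and not on cells that express the gene. Their median raw depth was 10339, 5971.5 and 6236.5 UMIs, and 45.3% of aged control and 59.6% of aged ABX Ly6CHigh cells had under 2000.

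**Figure D1:**
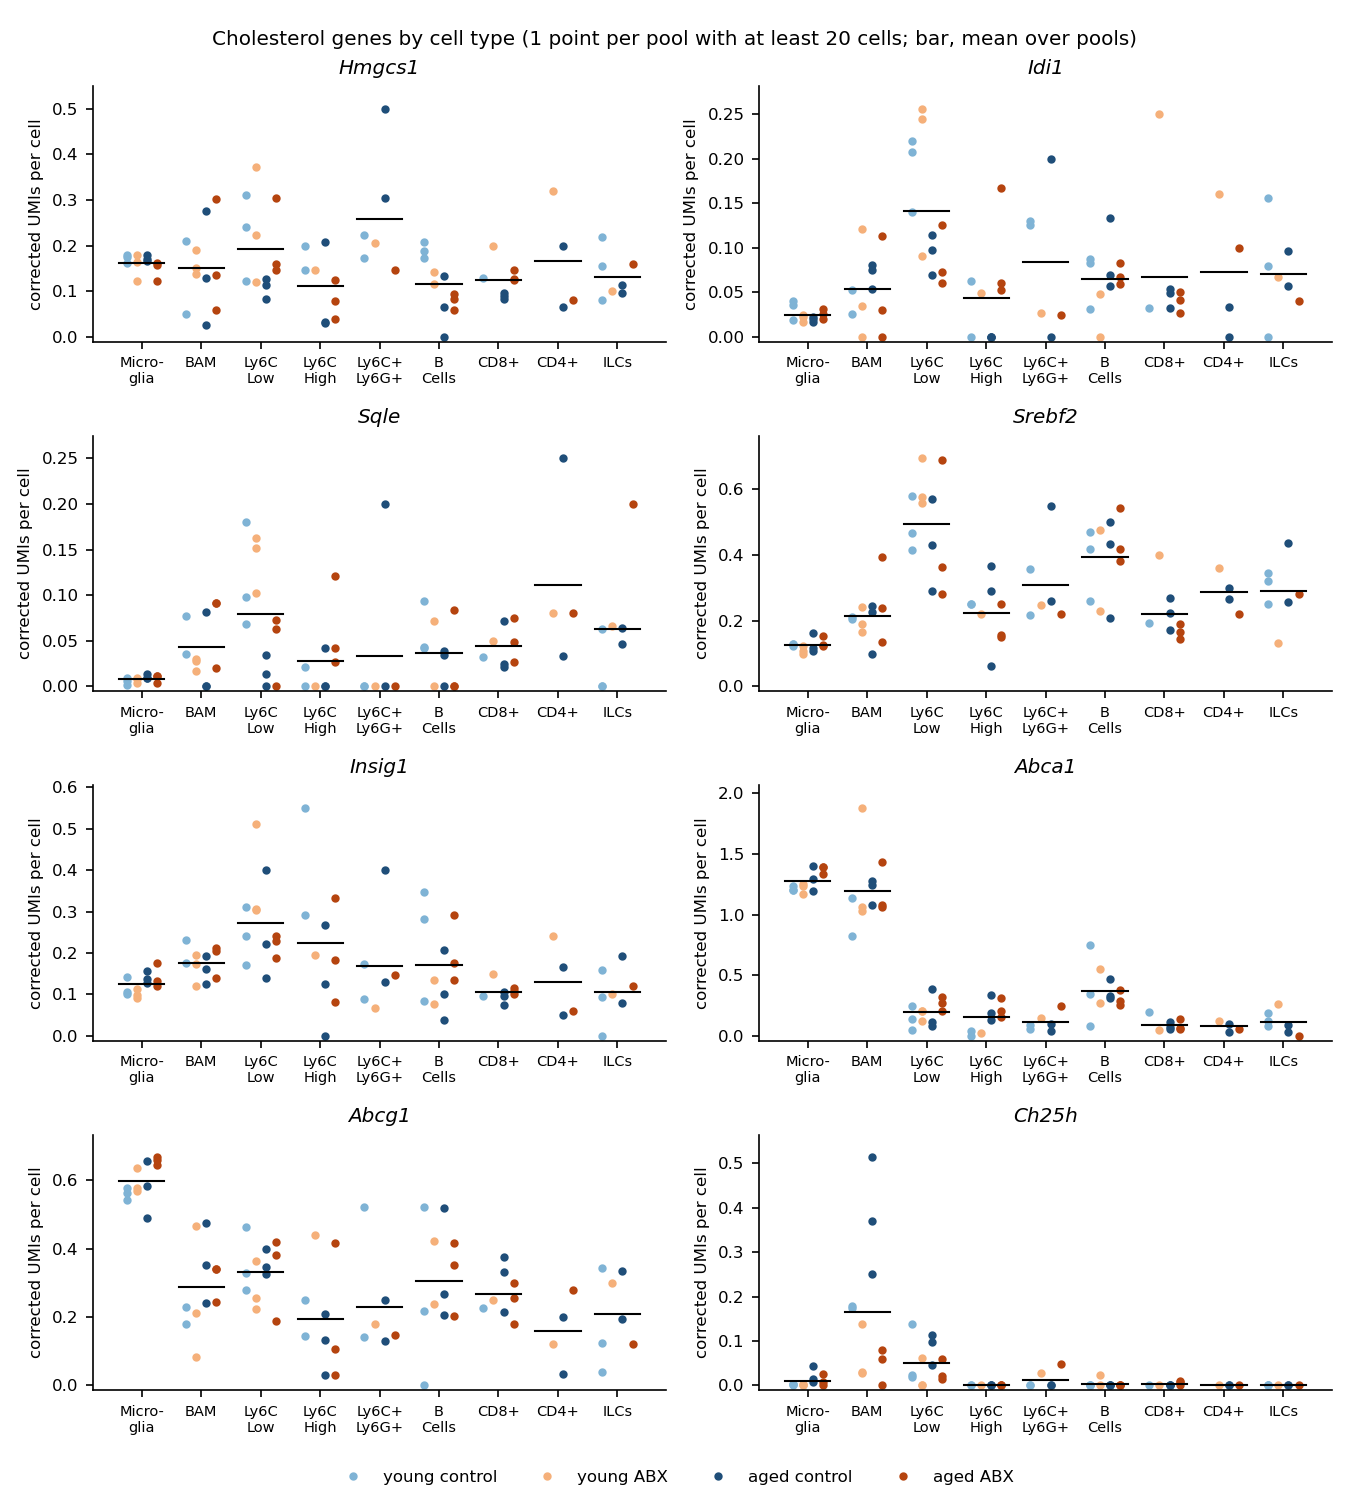
Mean corrected UMIs per cell of each gene (vertical axes, linear) in 9 cell types, with 1 point per pool of at least 20 cells, coloured by group, and a bar at the mean over pools. Abca1 was high in microglia and BAM, Abcg1 in microglia, Ch25h in BAM, and Srebf2 and Idi1 were highest in Ly6CLow cells and lowest in microglia.

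Each type was tested against microglia of the same pools with limma, with the pool as a block. Sqle and Ch25h were below the mean of 0.05 needed for testing, so 6 of the 8 members were tested. Abca1 was lower than in microglia in 7 of 8 types, by 1.81 on the log2 scale in B cells (SE 0.256) to 3.47 in CD4+ cells (SE 0.366), and did not pass in BAM (log2 -0.15, SE 0.256, adjusted p 0.750). Abcg1 was lower in 8 of 8 types, from log2 -0.79 (SE 0.258, adjusted p 0.00761) in Ly6CLow to -1.88 (SE 0.38) in CD4+ cells. Srebf2 was higher in 8 of 8, from 0.54 (SE 0.171, adjusted p 0.0116) in BAM to 1.59 (SE 0.166, adjusted p 1.74e-13) in Ly6CLow cells.

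Idi1 was higher than in microglia in Ly6CLow cells (log2 1.27, SE 0.247, adjusted p 9.05e-06), Ly6C+Ly6G+ cells, B cells and ILCs. In the last 3 its adjusted p was 0.0310, 0.0438 and 0.0499. Insig1 was higher in Ly6CLow cells only among the 8 types (log2 0.82, SE 0.233, adjusted p 0.00204), a statement on each test and not on the difference between types, and Hmgcs1 passed in none. In the aged pools alone the Insig1 call was lost (0.53, adjusted p 0.177). Insig1 passed in Ly6CHigh cells in the young pools alone (1.16, adjusted p 0.0155) and with a pseudocount of 0.5 (adjusted p 0.0367). Hmgcs1 passed as lower in the aged pools alone in B cells (-0.87, adjusted p 0.0215) and Ly6CHigh cells (-0.76, adjusted p 0.0387). With totals scaled per pool its adjusted p was 0.0477 and 0.0464 in these 2 types, and with a pseudocount of 0.5 it passed as higher in Ly6C+Ly6G+ cells (adjusted p 0.0425). Much of the transcriptome differs between these types. The share of all 8985 genes called was 24.9% for BAM, 53.7% for Ly6CLow, 61.1% for Ly6CHigh, 74.1% for Ly6C+Ly6G+, 58.1% for B cells, 54.7% for CD8+, 48.5% for CD4+ and 53.6% for ILCs. Members were thus called in 2 of 6 (BAM), 5 of 6 (Ly6CLow), 3 of 6 (Ly6CHigh, CD8+ and CD4+) and 4 of 6 (Ly6C+Ly6G+, B cells and ILCs). With 6 genes these counts lay near the shares over all genes, so the number called is no result about the members. The call of Srebf2 in BAM was lost in the young pools alone (adjusted p 0.0647), in the aged pools alone (0.190) and with pools of at least 10 cells (0.0502). It was lost in the aged pools alone in Ly6CHigh (0.154) and CD8+ cells (0.185), and in the latter with pools of at least 10 cells (0.136). The call of Abcg1 was lost in BAM in the aged pools alone (adjusted p 0.0575), and in Ly6CLow (0.122), Ly6CHigh (0.0775) and Ly6C+Ly6G+ cells (0.0726) in the young pools alone. That of Idi1 in ILCs, B cells and Ly6C+Ly6G+ cells was lost under at least 4 other settings each, and Idi1 passed in CD8+ cells with pools of at least 10 cells (adjusted p 0.0150).

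**Figure D2:**
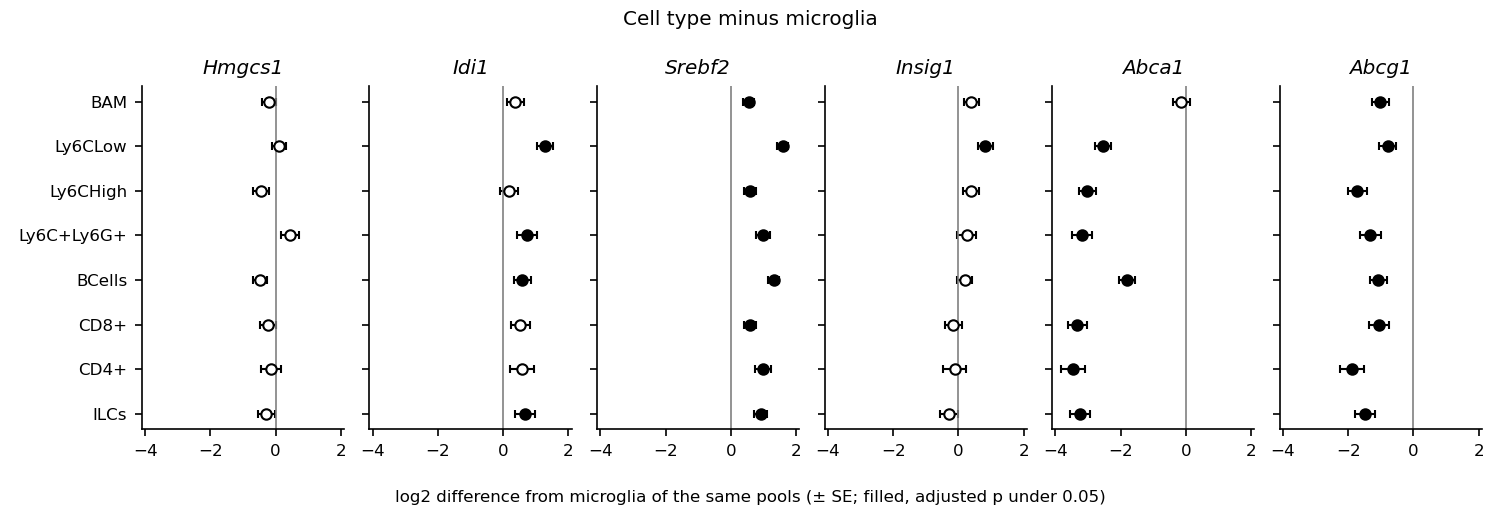
The log2 difference of each of 8 cell types from microglia of the same pools (horizontal axes, points with SE; filled points have an adjusted p under 0.05) for the 6 members tested. Srebf2 lay to the right of 0 and Abcg1 to the left in all 8 types, and the Abca1 value of BAM lay near 0.

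The wider pathway was counted by list, first in Ly6CLow cells. Of 20 synthesis enzymes 14 were tested, of which 6 were higher than in microglia and 0 lower, with a list median of 0.21 on the log2 scale against -0.18 over all genes, of which 21% were called higher. Of 10 sterol sensing and uptake genes 9 were tested, with 4 higher and 4 lower and a median of -0.20. Stard4, a cholesterol carrier, was 1.14 higher (SE 0.252), and Mylip, a ubiquitin ligase and liver X receptor target, was at -2.11 (SE 0.216). Of 16 liver X receptor, efflux and oxysterol genes 12 were tested, with 3 higher and 5 lower and a median of -0.17. Of all 8985 genes 1884 were called higher and 2943 lower. Lpcat3, a phospholipid enzyme and liver X receptor target, fell by 2.21 against microglia, and Apoe, the lipoprotein that accepts cholesterol, was 1.79 higher. In BAM the efflux list had 5 genes higher and 2 lower (median 0.02, against -0.12 over all genes), led by Apoe at 4.73 (SE 0.299) and Cyp27a1, a sterol hydroxylase, at 1.41, while Lpcat3 was at -1.62. The sensing list had 3 higher and 4 lower there, among them Stard4 at 0.75 and Mylip at -1.53, and 0 of 14 synthesis enzymes passed. Over all 8985 genes 882 were called higher and 1356 lower in BAM. In ILCs, CD8+ and CD4+ cells 10, 9 and 8 of the 12 efflux genes were lower and 0 higher, where 33.6%, 33.3% and 31% of all genes were called lower. In Ly6C+Ly6G+ and B cells 9 and 7 were lower and 0 higher, and in Ly6CHigh cells 6 were lower and 2 higher. Of the 14 synthesis enzymes 4 were higher and 3 lower in Ly6CHigh, 5 and 4 in Ly6C+Ly6G+, 3 and 2 in B, 2 and 1 in ILC, 2 and 0 in CD8+ and 1 and 0 in CD4+ cells. Over all 8985 genes, higher and then lower calls numbered 2046 and 3443 in Ly6CHigh and 1295 and 5361 in Ly6C+Ly6G+ cells. They numbered 1733 and 3484 in B cells, 1799 and 3017 in ILCs, 1917 and 2996 in CD8+ and 1565 and 2789 in CD4+ cells. No list was tested as a set.

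Neighbouring types in each gene's order were compared within pools by an exact two-sided sign-flip permutation test over 64 neighbour pairs, of which 44 had the 6 shared pools needed for a p under 0.05. Only Abcg1 in microglia against Ly6CLow passed among these pairs, being higher in 12 of 12 pools (exact p 0.000488, adjusted p 0.0313). Abca1 in BAM against B cells was higher in 10 of 10 pools (log2 1.69, exact p 0.00195, adjusted p 0.0625), Srebf2 in BAM against microglia in 10 of 11 (0.55, exact p 0.00293, adjusted p 0.0625), and Ch25h in BAM against Ly6CLow in 10 of 11 (0.86, exact p 0.00391, adjusted p 0.0625). An exact p under 0.05 that did not pass after adjustment was also reached by Ch25h in microglia against CD8+ cells (7 of 8 pools, exact p 0.0156, adjusted p 0.200), Ch25h in Ly6CLow against Ly6C+Ly6G+ cells (6 of 6, exact p 0.0312, adjusted p 0.333) and Abca1 in B against Ly6CLow cells (8 of 11, exact p 0.0391, adjusted p 0.357). The 20 pairs with fewer shared pools could not reach 0.05.

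By the pattern over the 9 types, the genes most like Abca1 were Gm5086 and Bcl9 (Pearson r 0.983 and 0.983, of 9174 genes), and those most like Abcg1 were Mical3 and Sec16a (0.941 and 0.934). Ch25h was most like Cd209b and Lyve1 (0.978 and 0.978), 2 genes of tissue macrophages, a likeness between types and not between the cells of BAM. Idi1 was most like Srebf2 (0.895), and Srebf2 had Tmem123 (0.901) and then Idi1. Insig1 was most like Sirpb1a and Gm2a (0.943 and 0.943), Sqle like Tgfbr3 (0.924) and Hmgcs1 like Strn (0.963). With 9 types these are descriptions, and the types share the same 12 pools.

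The second comparison asked whether depletion of the microbiota or age changed these genes in microglia. Abca1 was 1.21, 1.24 and 1.20 in young control, 1.24, 1.17 and 1.25 in young ABX, 1.19, 1.40 and 1.29 in aged control, and 1.39, 1.33 and 1.39 in aged ABX pools. The aged ABX pools lay above all young pools, and within each age the arms overlapped. Abcg1 was 0.542, 0.562 and 0.577 in young control, 0.575, 0.569 and 0.636 in young ABX, 0.582, 0.657 and 0.489 in aged control, and 0.644, 0.666 and 0.659 in aged ABX pools. Here too aged ABX stood above young ABX, while aged control spanned nearly the whole range.

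Insig1 was 0.143, 0.1 and 0.106 in young control, 0.0993, 0.114 and 0.0919 in young ABX, 0.137, 0.156 and 0.128 in aged control, and 0.133, 0.120 and 0.177 in aged ABX pools. Every aged ABX pool lay above every young ABX pool, as for Abca1 and Abcg1, which was seen in 15.4% of the 8759 genes tested. Srebf2 averaged 0.127 ± 0.00274 in young control, 0.111 ± 0.0120 in young ABX, 0.129 ± 0.0294 in aged control and 0.134 ± 0.0175 in aged ABX pools (n = 3 each). Hmgcs1 averaged 0.173 ± 0.00916, 0.155 ± 0.0288, 0.173 ± 0.00747 and 0.147 ± 0.0220 in the same order, and its 3 aged ABX pools (0.159, 0.161 and 0.122) lay below the 3 aged controls (0.166, 0.172 and 0.181), as in 12% of genes.

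By limma 5 of the 8 members were tested in microglia and 0 passed in any of the 6 contrasts. The share of all 8759 genes called was 0.137% for ABX minus control in young, 3.23% in aged, 5.4% over both ages, 0% for the difference of the ABX effect between ages, 2.66% for aged minus young in control and 6.15% in ABX. An unadjusted p under 0.05 was reached by Abcg1 for ABX in aged (log2 0.18, SE 0.08, adjusted p 0.229) and over both ages (0.13, adjusted p 0.195), and by Insig1 (0.34, SE 0.12, adjusted p 0.0975) and Abca1 (0.17, SE 0.06, adjusted p 0.121) for age in ABX. The SE of the members was 0.06 to 0.12 for contrasts within 1 age or arm. Among microglia of 4000 to 12000 raw UMIs, Abca1 (log2 0.22, adjusted p 0.0389) and Abcg1 (0.25, adjusted p 0.0462) passed for age in ABX. For the difference of the ABX effect between ages, 579 genes had an unadjusted p under 0.05, and the members' adjusted p ran from 0.907 to 0.967.

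Idi1, Sqle and Ch25h lay below the level needed for testing in microglia. Idi1 ranged over pools from 0.0164 to 0.0398, Sqle from 0.00164 to 0.0138 and Ch25h from 0 to 0.0429. The 3 aged control values of Ch25h (0.0149, 0.0429 and 0.00886) lay above the 3 young control values (0.00325, 0.00164 and 0.00306), which was seen in 12.6% of the genes tested. Its values came from few cells, 14 of 2226 aged control and 5 of 2513 young control microglia, and 1 aged control cell held 19 of the 46 corrected UMIs.

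Among the partners of the members, 4 genes of the efflux list passed. Apoe was 8.38, 6.79 and 6.25 in young control, 7.26, 6.79 and 7.65 in young ABX, 13.7, 11.5 and 10.9 in aged control, and 12.7, 20.8 and 15.9 in aged ABX microglia. All aged pools lay above all young pools, with a log2 change of 0.75 (SE 0.136, limma adjusted p 0.00374) in control and 1.15 (adjusted p 2.48e-05) in ABX. Every aged pool above every young pool of the same arm was seen in 12.6% of genes in control and 15.4% in ABX. Soat1, which esterifies cholesterol for storage, rose with age in ABX by 0.40 (SE 0.08, adjusted p 0.00501), from 0.300 ± 0.0307 to 0.412 ± 0.0291.

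Lipa, the lysosomal acid lipase that frees cholesterol from esters, fell under ABX by 0.21 on the log2 scale over both ages (SE 0.051, adjusted p 0.0218). It was 0.439 to 0.518 in young control against 0.398 to 0.411 in young ABX, and 0.484 to 0.504 in aged control against 0.375 to 0.442 in aged ABX pools, with no overlap within either age (in aged mice as in 12% of the genes tested, in young mice not counted). Npc1, which exports that cholesterol from the lysosome, rose by 0.20 (SE 0.053, adjusted p 0.0307), with 0.473 ± 0.0457 in young control, 0.585 ± 0.0143 in young ABX, 0.536 ± 0.0346 in aged control and 0.587 ± 0.0457 in aged ABX pools. The call of Lipa was lost without young control 2, aged control 2 or aged ABX 2 (adjusted p 0.0549 to 0.0625) and that of Npc1 without any of 6 pools (0.0553 to 0.0864), namely young control 1 and 2, young ABX 1 and 2, aged control 2 and aged ABX 2. Without the filter on low values both were lost, as was Apoe for age in control (adjusted p 0.0634). Apart from these, 0 of the 11 synthesis and 0 of the 7 sensing genes tested passed in any contrast. For ABX in young the smallest p of the lists belonged to Npc1 (0.28, adjusted p 0.144) and Acat2 (0.32, adjusted p 0.277), in aged to Apoe (0.43, adjusted p 0.0842) and Lipa (-0.22, adjusted p 0.0926). For the difference between ages they belonged to Acat2 (-0.37, adjusted p 0.678) and Apoe (0.40, adjusted p 0.754). The median log2 change of the 12 efflux genes was 0.14 for age in ABX, against 0.03 over all genes.

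**Figure D3:**
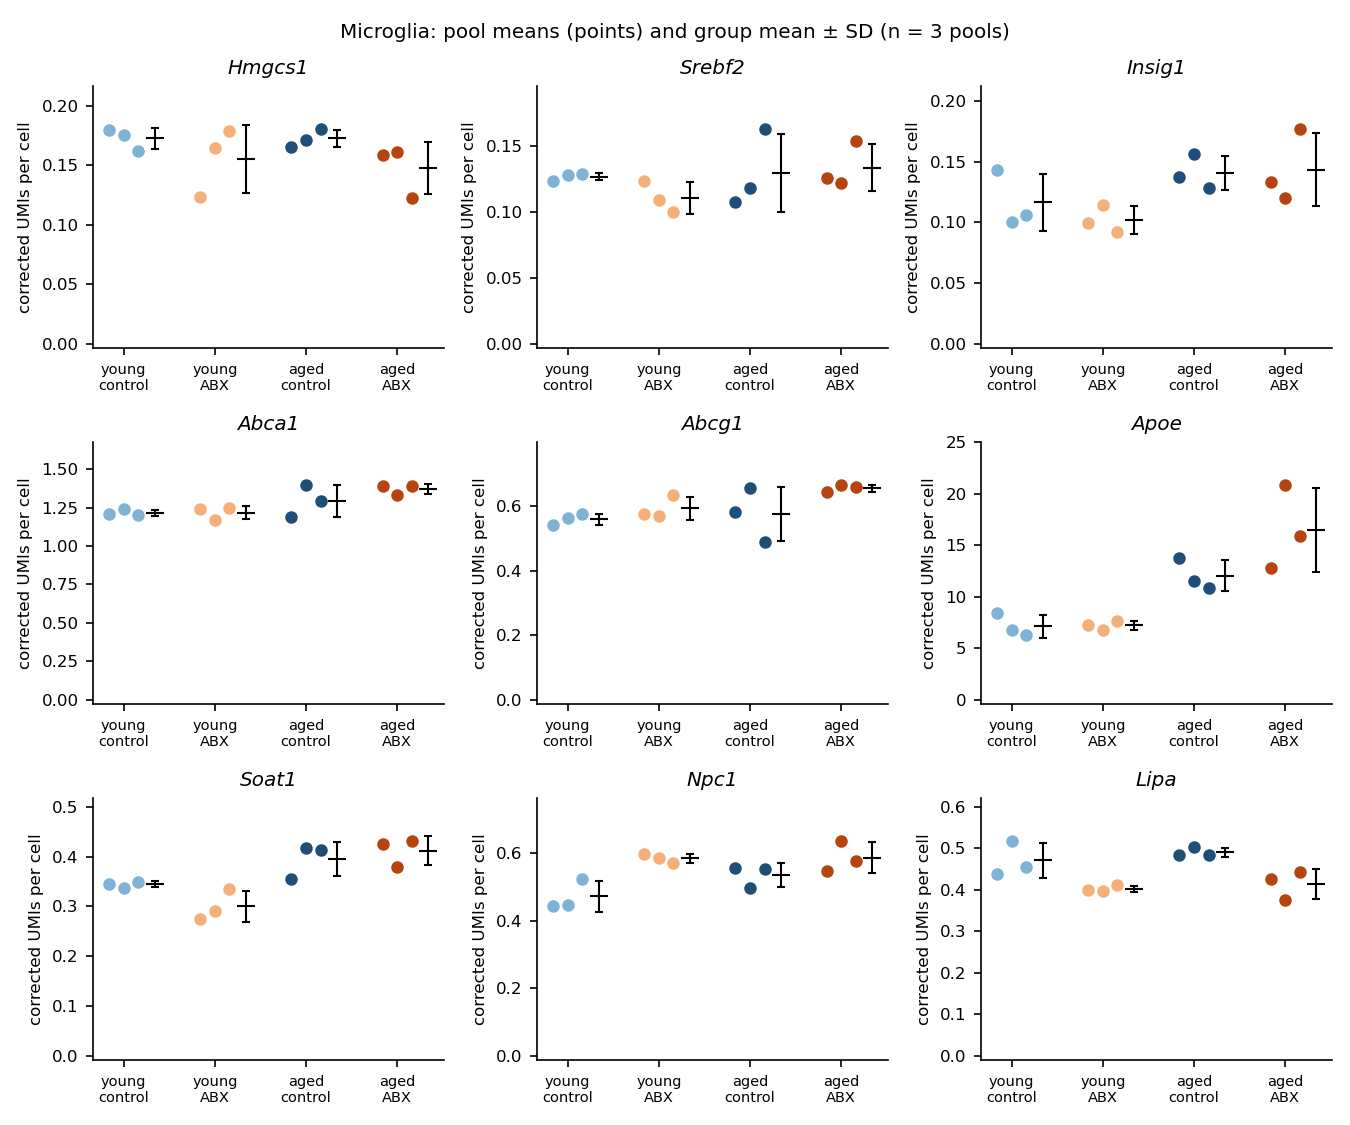
Mean corrected UMIs per microglial cell (vertical axes, linear, from 0) of 5 members and 4 partner genes in each of 12 pools (points), with the mean ± SD of the 3 pools of each group beside them. Apoe was higher in all 6 aged pools, Lipa was lower in the ABX pools of both ages, and the groups of Abca1, Abcg1, Srebf2, Insig1 and Hmgcs1 differed little.

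In BAM, 1 member differed between the arms. Ch25h was lower under ABX in aged mice, and its pools were lower in young mice too. Of the aged controls, pools 1, 2 and 3 held 0.514, 0.250 and 0.371, and the aged ABX pools 0.0606, 0 and 0.0800. The young control pools 1 and 3 held 0.179 and 0.175, and pool 2, left out of the tests for its 17 cells, 0.294. The young ABX pools held 0.0278, 0.0303 and 0.138. Every control pool thus lay above every ABX pool of its age. All ABX pools below all control pools was seen in 5.38% of the 8870 genes in young, 10.1% in aged and 0.609% in both.

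In aged BAM the log2 change of Ch25h was -2.21 (SE 0.427, limma adjusted p 0.0172), and 1 of 7 members tested was called, against 0.158% of all genes. In young BAM it was -1.11 (SE 0.477, adjusted p 0.784; 0.0113% of genes called), over both ages -1.66 (SE 0.320, adjusted p 0.0551; 0% called), and the difference between the ages was -1.10 (SE 0.64, adjusted p 0.724; 0% called). The aged call therefore does not show an effect that differs by age. For aged minus young, Ch25h gave 0.87 in control (adjusted p 0.862; 0.0338% of genes called) and -0.24 in ABX (adjusted p 0.896; 0.406% called).

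The level rests on few cells. Ch25h was above 0 in 10 of 113 young control BAM (8.85%, exact 95% interval 4.33 to 15.7), 5 of 127 young ABX (3.94%, 1.29 to 8.95), 15 of 139 aged control (10.8%, 6.17 to 17.2) and 5 of 127 aged ABX BAM (3.94%, 1.29 to 8.95). These intervals sum the cells over the pools of a group, the pool of 17 cells included. They leave out the spread between pools and mice, so they do not compare the arms. In aged control pool 1 a single cell held 13 of 19 corrected UMIs, and in pool 3 a single cell held 16 of 23. The highest aged ABX cell held 2. With each gene's highest cell in each pool left out the aged change was -1.43 and no longer passed (adjusted p 0.269). It was also lost without a filter on low values (adjusted p 0.0719), and without aged control pool 1 (0.210) or 3 (0.101) or aged ABX pool 1 (0.0509) or 2 (0.150), with log2 changes from -1.79 to -2.36.

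Gpr183, the receptor for the dihydroxylated oxysterol that is made from the Ch25h product, fell in the same comparison. It was 2.65, 2.00 and 1.90 in aged control and 0.879, 1.05 and 1.18 in aged ABX BAM, with no overlap (as in 10.1% of genes), a log2 change of -1.04 (SE 0.192, adjusted p 0.0118). In young BAM it was 1.56 and 1.96 in control (2.12 in pool 2) and 1.36, 1.52 and 1.64 in ABX, a change of -0.22 (adjusted p 0.942). This receptor was found in 50% to 78.9% of BAM per pool, and its call held without the highest cells (-1.05, adjusted p 0.0207). It was lost without aged control pool 1 (0.147) or aged ABX pool 1 (0.0965) or 2 (0.0692).

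Some marker lists were also lower under ABX in aged BAM, and others overlapped between the arms. The 7 microglia markers, all detected, summed to 32.8 to 48.5 in aged control and 17.9 to 27.3 in aged ABX pools. The 8 inflammatory genes, among them Il1b, Ccl3 and Ccl4, summed to 90.4 to 101 and 57.1 to 78.6. Neither sum overlapped between the arms, a separation seen in 10.1% of single genes and not counted for sums of lists. The 10 dissociation genes summed to 220 to 295 and 209 to 242, and the 7 BAM markers to 21.9 to 26.0 and 23.3 to 25.3. Median raw depth was 7652 UMIs in aged control and 7157 in aged ABX BAM. The next values take the BAM of all 4 groups and all pools together. Of the inflammatory genes, Il1b (10.6 against 4.78), Ccl3 (20.1 against 13.4), Ccl4 (28.1 against 14.8) and Cxcl2 (27.9 against 17.7) averaged higher in the 35 BAM with Ch25h than in the 471 without it. Tnf (0.686 against 0.766), Il1a (0.2 against 0.803), Nfkbia (9.26 against 12.4) and Nfkbiz (7.43 against 7.66) averaged lower. Of the 7 microglia markers 6 averaged lower, P2ry12 at 1.17 against 2.54, and Tmem119 was at 1.97 against 1.88. Of the 7 BAM markers 6 averaged lower, Cd163 at 0.514 against 2.62, Pf4 at 4.37 against 8.94 and Lyve1 at 0.343 against 1.08, and Ms4a7 was at 4.2 against 3.30. These are descriptions of cells, chosen by Ch25h itself. The cells with Ch25h were 10 of 113 young control, 5 of 127 young ABX, 15 of 139 aged control and 5 of 127 aged ABX BAM. Arm and Ch25h are therefore mixed in these averages, and the part of the arm in them was not tested. The part of these lists in the Ch25h and Gpr183 results was not tested. Fewer cells of a Ch25h-rich kind and less RNA per cell cannot be told apart in pool means.

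**Figure D4:**
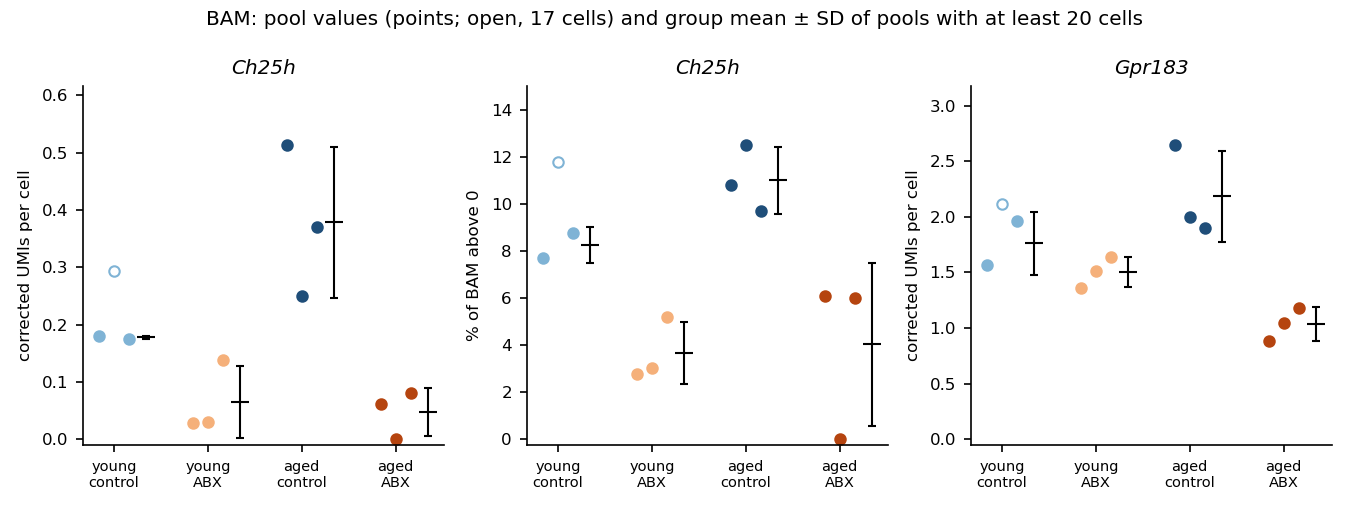
Corrected UMIs of Ch25h per BAM (left), the percentage of BAM with Ch25h above 0 (middle) and corrected UMIs of Gpr183 per BAM (right) in each pool (points; the open point has 17 cells), with the mean ± SD of pools of at least 20 cells. All ABX pools lie below the control pools of the same age for Ch25h, and the aged ABX pools lie lowest for Gpr183.

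The other 6 tested members did not pass in BAM. Abca1 in young BAM was 0.38 higher under ABX (SE 0.25, adjusted p 0.878) and -0.02 in aged (SE 0.23, adjusted p 0.989). The SE of these 6 was 0.23 to 0.57 for contrasts within 1 age or arm, above that in microglia. In the contrasts where no gene of the lists passed, the smallest p in BAM belonged to Apoc1 (log2 -2.20, adjusted p 0.356) and Insig2 (0.97, adjusted p 0.779) for ABX in young, and to Apoc1 (2.29, adjusted p 0.381) and Insig2 (-1.38, adjusted p 0.430) for the difference between ages. For age in control it belonged to Apoc1 (-2.09, adjusted p 0.370) and Mbtps1 (0.81, adjusted p 0.804), and for age in ABX to Gpr183 (-0.52, adjusted p 0.342) and Insig2 (-0.76, adjusted p 0.428). Over both ages 585 genes and for the difference 692 genes had an unadjusted p under 0.05.

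In Ly6CLow cells 7 of 8 members were tested, all but Ch25h, and 0 passed. The share of 8613 genes called was 0% for each of the 4 ABX contrasts, with 365 to 535 genes at an unadjusted p under 0.05, 0.755% for aged minus young in control and 1.95% in ABX. The lowest p of the members belonged to Sqle. It was 0.0690, 0.0976 and 0.180 in young control, 0.163, 0.152 and 0.102 in young ABX, 0, 0.0139 and 0.0349 in aged control, and 0.0625, 0.0725 and 0 in aged ABX pools. All aged pools lay below the young pools of the same arm, which was seen in 15.7% of the genes tested in control and 14.3% in ABX. The median over all genes for age in control was -0.21, and Sqle had log2 changes of -1.30 (SE 0.424, adjusted p 0.142) in control and -1.08 (SE 0.424, adjusted p 0.240) in ABX. For Idi1 the values were -0.73 in control (adjusted p 0.328) and -0.81 in ABX (adjusted p 0.321). Levels of both genes lie near the pseudocount of 0.05, so the size of these changes depends on it. With a pseudocount of 0.5 Sqle gave -0.25 in control and -0.23 in ABX, and Idi1 gave -0.24 in ABX.

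Depth and the sum of dendritic cell markers also tended lower in aged than in young Ly6CLow pools. By pool, the median depth was 3432, 4750.5 and 10101 UMIs in aged control pools 1, 2 and 3. It was 7287.5, 7139 and 10210.5 UMIs in aged ABX pools 1, 2 and 3. The pools' median raw depth was 9909 to 12076 UMIs in young and 3432 to 10210.5 in aged Ly6CLow cells, and 32.1% of aged control and 31.1% of aged ABX cells had under 2000 UMIs, against 4.70% and 4.00% in young. Among cells of at least 2000 UMIs the Sqle changes were -1.03 (adjusted p 0.955) and -0.89 (adjusted p 0.713). The 6 dendritic cell markers summed to 4.76 to 7.80 in young and 1.67 to 5.67 in aged pools, and their part was not tested. Among partners, Apoe was higher with age in ABX (15.5 to 36.7 in young and 45.0 to 71.8 in aged pools, log2 1.20, SE 0.258, adjusted p 0.0211). This call was lost without young ABX 2 or 3 or aged ABX 2 or 3 (0.0567 to 0.108), without the highest cells (0.110) and without the filter on low values (0.0621). In control the smallest p of the lists belonged to Pmvk (-1.48, adjusted p 0.0829) and Fdps (-1.46, adjusted p 0.129), both synthesis enzymes.

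**Figure D5:**
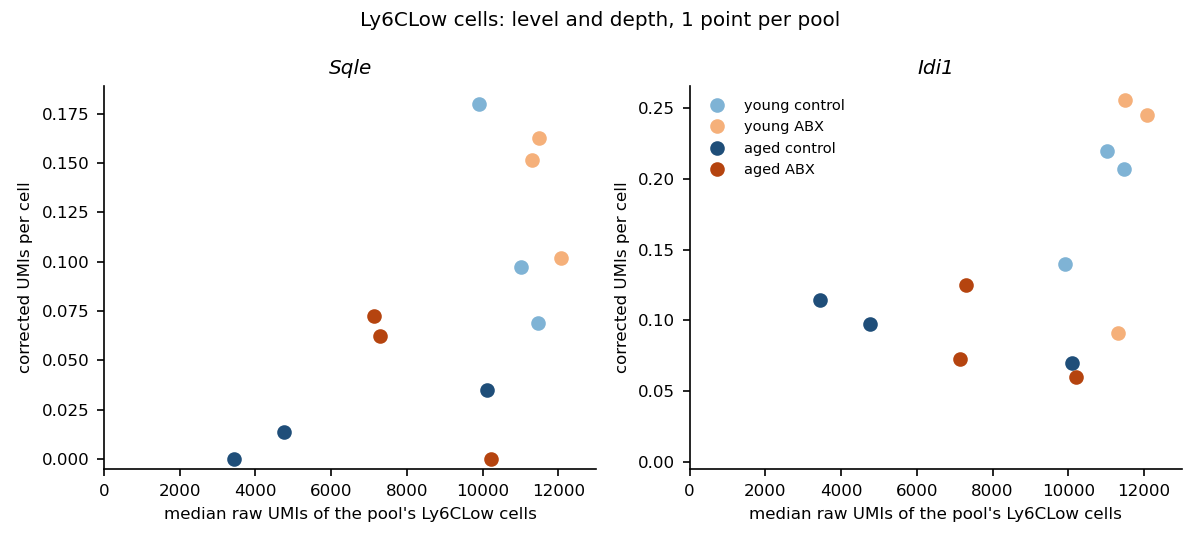
Corrected UMIs per Ly6CLow cell of Sqle and Idi1 (vertical axes) against the median raw UMIs of the same cells (horizontal axes), with 1 point per pool. The 6 young pools lie at 9909 to 12076 UMIs and the 6 aged pools at 3432 to 10210.5 UMIs, with Sqle at 0 to 0.0725 in aged and 0.0690 to 0.180 in young pools.

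The remaining types gave no called member where their contrasts could be fitted. In B cells, with 6 members tested, 0.0595% of genes were called for aged minus young in control and 0% in the 5 other contrasts, which had 284 to 375 genes at an unadjusted p under 0.05. The lowest p there was that of Hmgcs1 for aged minus young in control (log2 -1.22, SE 0.502, adjusted p 0.427). In Ly6CHigh cells, with 5 members tested, 0% of genes were called for ABX in aged (163 genes at an unadjusted p under 0.05) and 0.125% for aged minus young in control, where Abca1 gave 1.92 (SE 0.613, adjusted p 0.385) and Insig1 -1.69 (SE 0.726, adjusted p 0.536). Of the Ly6CHigh cells 45.3% in aged control and 1.23% in young control had under 2000 raw UMIs. In cells of at least 2000 UMIs these changes were 0.58 and -0.14 (adjusted p 0.992 each), and with pools of at least 10 cells Insig1 gave -0.63 (adjusted p 0.748). For aged minus young in control 0% of genes were called in Ly6C+Ly6G+ cells (243 at an unadjusted p under 0.05) and 0.407% in ILCs, and for ABX in aged 0.121% in CD8+ cells. Of 179 tests of a member over types and contrasts, 1 passed.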

How the data were processed

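CITE-seq RNA values were analysed in 12 pools of cells, and the antibody tags were not used here. Per the submitters' processing notes, Cell Ranger 3.0.2 and Seurat 3.0.1 were used; the steps and filters are not given in the sources used here. The deposited RNA table holds a depth-corrected score for each gene and cell, which the authors made with SCTransform, per the file headers, and its sum per cell equals the deposited SCT total in all 13052 cells. This correction brings cells to a common depth, so low values carry rounding and depth residues. Raw UMI counts per cell, cell types and hashtags (1 per cell) come from the authors' deposited metadata, of which 34 other columns were not used. Values of a type were averaged per pool of at least 20 cells, and log2(mean + 0.05) was fitted with limma 3.58.1 (R 4.3.3, trended variance) for genes with a mean of at least 0.05. A contrast needed at least 2 such pools in each group. P-values measure the spread between pools. No doublet caller was run here, so doublets within a pool would remain. The fits were tested on simulated data.

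Members, lists and tests were chosen with earlier results of these data known. All members were described in every type. Of 3 pathway lists, genes past 0.05 were named (up to 8 by size), or the 2 with the smallest p where none passed, in microglia, BAM and Ly6CLow cells. A list gene that met this rule is counted but not reported here. Alternatives were another pseudocount, no filter, another scaling, another cell minimum, bands of depth, a hashtag block and leaving out each pool. Leaving out each gene's highest cell, and cells under 2000 UMIs outside microglia, were added after seeing the data. Intervals and limits for a count of 0 cover counting error only.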

Additional observations from a re-analysis of the deposited data

How the results depend on the processing

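Counts of genes called were compared by their size, and members by their sign and call, so the 2 cannot be ranked. A pseudocount of 0.5 shrank the log2 changes of members with low levels without changing their call. For Hmgcs1 in B cells for age in control, -1.22 became -0.29. In microglia the 12 genes for ABX in young became 7 with a pseudocount of 0.5, 0 without a filter, 58 with the mean of log values per cell and 28 in cells of 4000 to 12000 raw UMIs. The 283 for ABX in aged became 105 without a filter, 439 with the mean of logs and 450 in that band, and the 473 over both ages 209 without a filter. The 0 for the difference between ages became 4 with the mean of logs, 2 in the band, 1 without the highest cells and 3 with hashtag number as a replicate block. That block gave 234 and 563 genes for age in control and in ABX, against 233 and 539, and changed no call of a member. A shared hashtag number does not pair the pools. The 233 for age in control became 145 without a filter. Values of members near 0 in microglia changed sign: with the mean of logs Abca1 for ABX in young (-0.00956), Hmgcs1 and Srebf2 for age in control (-0.00162 each), and in the depth band Srebf2 (-0.0314) and Insig1 (-0.0285) for ABX in aged and Hmgcs1 (-0.0189) for age in control.

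In BAM the count for ABX in young was 2 with the other pseudocount, 2 with at least 10 cells and 0 without the highest cells, and that over both ages 5 with at least 10 cells, where Ch25h passed too (log2 -1.76, adjusted p 0.0381). Age in control gave 5 with the other pseudocount. The 36 for age in ABX became 16 with the other pseudocount, 12 without a filter, 7 with at least 10 cells and 10 without the highest cells, where Ch25h turned to 0.26. In Ly6CLow cells the 65 for age in control became 36 without a filter and 0 in cells of at least 2000 UMIs, and the 168 for age in ABX 76 and 5. In Ly6CHigh cells ABX in aged gave 7 in cells of at least 2000 UMIs, and the 10 for age in control became 3 (pseudocount), 0 (no filter), 21 (scaled totals), 0 (at least 10 cells), 4 (at least 2000 UMIs) and 2 (highest cells left out). Ly6C+Ly6G+ cells gave 1 with the other pseudocount. B cells gave 0 (no filter), 15 (scaled), 23 (at least 2000 UMIs) and 13 (highest cells left out) in place of 5 for age in control, and 1 (at least 10 cells) and 5 (at least 2000 UMIs) in place of 0 for age in ABX. CD8+ cells gave 0 (no filter) and 1 (at least 10 cells) in place of 10, and ILCs 0 (no filter), 76 (at least 10 cells) and 0 (highest cells left out) in place of 34. Against microglia, the 2238 genes of BAM became 1416 in the young and 1386 in the aged pools alone. There Hmgcs1 in Ly6CLow (-0.0932) and Insig1 in Ly6CHigh (-0.10) changed sign in aged pools, Hmgcs1 (0.00608) and Idi1 (-0.00402) in Ly6CHigh in young pools, and Insig1 in Ly6C+Ly6G+ (-0.11) with at least 10 cells. The cause was not tested.

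Leaving out each pool in turn gave, in microglia, 0 to 26 genes for ABX in young, 109 to 304 in aged, 262 to 528 over both ages, 0 to 4 for the difference, 103 to 242 for age in control and 271 to 542 in ABX. Members near 0 ranged across it: for ABX, Abca1 in young (-0.0155 to 0.0323), Srebf2 (-0.0466 to 0.17) and Insig1 (-0.11 to 0.10) in aged and Srebf2 over both ages (-0.0932 to 0.0154). Hmgcs1 ranged from -0.17 to 0.0416 for the difference, -0.0329 to 0.0246 for age in control and -0.17 to 0.0423 in ABX, and for age in control Srebf2 from -0.12 to 0.10 and Abcg1 from -0.0630 to 0.13. In BAM the counts were 0 to 19 (young), 0 to 19 (aged), 0 to 16 (both), 0 to 15 (difference), 1 to 26 (age in control) and 4 to 52 (age in ABX), where Ch25h ranged from -0.50 to 0.18. They were 19 to 297 and 51 to 220 for age in control and ABX in Ly6CLow cells, 0 to 1 for ABX in aged and 0 to 52 for age in Ly6CHigh cells, and 0 to 31 in Ly6C+Ly6G+ cells. In B cells they were 0 to 1 over both ages, 0 to 3 for the difference, 0 to 24 for age in control and 0 to 1 in ABX, in CD8+ cells 2 to 17 and in ILCs 0 to 51. Where an arm was left with 1 pool, that pool was assumed to vary like the others.

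Sqle, Idi1 and Ch25h averaged under 0.05 per cell in microglia and were not tested there, and 5 of the types have too few pools for most contrasts. No paired analysis was possible for ABX against control because no label pairs the mice of the arms.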
